A study of Mus musculus with 3 samples.

Results

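Vascular smooth muscle cells, the contractile cells in the walls of arteries, arterioles and veins, were described in single-cell RNA sequencing of dissociated mouse hypothalamus. They numbered 1822 of 36467 kept barcodes, with 650 of 12305 in HS, 443 of 11517 in QS and 729 of 12645 in PF. The cells were chosen by their own counts of UMIs (unique molecular identifiers, 1 per captured transcript) among barcodes with at least 500 UMIs and at most 20% of them mitochondrial. A member had at least 4 of the 7 smooth muscle genes Tagln, Acta2, Myh11, Tpm2, Pln, Lmod1 and Cnn1 detected, with Myh11 at 2 or more UMIs. It had no more than 1 of the endothelial genes Cldn5, Flt1, Slco1a4 and Adgrl4 at 2 or more UMIs. It had none of P2ry12, Aqp4, Ccdc153, Mog and Dcn at 2 or more UMIs, genes that mark microglia, astrocytes, ciliated ependymal cells, oligodendrocytes and fibroblasts.

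Smooth muscle contracts when calcium and calmodulin switch on myosin light chain kinase, which lets smooth muscle myosin pull on actin, and it relaxes when myosin phosphatase removes the phosphate. Nitric oxide relaxes it through soluble guanylyl cyclase, cyclic GMP and cyclic GMP-dependent protein kinase. In the brain these cells set the width of arterioles and so the blood flow to the tissue, while pericytes, their nearest relatives, sit on the capillaries.

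All mice were 8-week-old males, and the study asked whether heat leaves lasting differences in the hypothalamus. HS mice were exposed to heat, QS mice had been exposed and were sampled in recovery, and PF mice were controls given food to match the intake of the exposed mice. Each group had 1 library, made after digestion with collagenase II. The number of mice behind a library, the temperature and the length of exposure and of recovery are not stated in the labels, and RT mice were not analysed here.

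The libraries held 93295920 to 103891747 UMIs over 11720 to 12836 barcodes, and the kept barcodes had medians of 6366 to 6510 UMIs. Each group has 1 library, which leaves no spread between animals to compare with, so there is no test. Intervals are at 95% and reflect counting error alone, and "higher" or "lower" is said of the libraries. They are exact, except those that set the ratio of smooth muscle against the ratio of another cell class, which use a normal approximation on the log scale. PF enters both HS against PF and QS against PF. Between 37 and 49 kept barcode sequences occurred in both libraries of a pair, and 0 of them were smooth muscle cells in both.

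Their median was 7660 UMIs in HS, 7532 UMIs in QS and 7413 UMIs in PF, and together they held 5047501 UMIs in HS, 3385640 UMIs in QS and 5458500 UMIs in PF. Levels below are CPM, the usual scaling of the UMIs of a gene to a fixed total of the summed UMIs of these cells, so they compare 1 gene across libraries and not genes with each other. A gene is called higher or lower where the ratio of its CPM is at least 1.5 either way, the interval of the ratio leaves out 1, and the library with more holds at least 30 UMIs.

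The label fitted the markers. All 6 fixed smooth muscle markers were detected in every library, and their summed level was 26482 CPM in HS, 31529 CPM in QS and 30360.4 CPM in PF. Since the rule used these genes, their level is a description. Acta2, smooth muscle actin, was at 11659 CPM in HS, 14099.5 CPM in QS and 13269 CPM in PF, against 320 CPM, 336 CPM and 350.2 CPM in cells chosen as pericytes from the same libraries. Tagln, transgelin, was at 8401 CPM in HS, 10238 CPM in QS and 10246 CPM in PF. Myh11, the smooth muscle myosin heavy chain, was at 2617 CPM in HS, 2611 CPM in QS and 2739 CPM in PF. Of the other rule genes, Cnn1 (calponin) stayed between 94.5 CPM and 114 CPM in the 3 libraries, and at most 2.10 CPM in pericyte-rule cells.

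Pericyte markers were common in these cells, and markers of more distant types were lower. All 7 pericyte markers were detected, with sums of 4467 CPM in HS, 4321 CPM in QS and 4380 CPM in PF, which is 18.0%, 14.6% and 16.9% of the sums in pericyte-rule cells of the same library. Rgs5, a regulator of G protein signals in mural cells, was at 2422 CPM in HS, 2167 CPM in QS and 2223 CPM in PF, against 3752 CPM, 4232 CPM and 3641 CPM in pericyte-rule cells. Sums for endothelial markers were 149 to 229 CPM, for fibroblast markers 110 to 132 CPM, for microglia markers 148 to 162 CPM, for astrocyte markers 101 to 123 CPM and for ependymal markers 309 to 330 CPM. Neuronal markers summed to 161 CPM in HS, 116 CPM in QS and 138 CPM in PF. The highest single neuronal marker held 152 CPM, 109 CPM and 123 CPM of these sums. Rbfox3, a defining neuronal marker, was at 0 in HS and QS, and Snap25 and the fibroblast markers Lum and Pdgfra were at 0 in QS. Oligodendrocyte markers summed to 234 CPM in HS, 844 CPM in QS and 304 CPM in PF. Blood cell markers summed to 63.8 CPM in HS, 295 CPM in QS and 221 CPM in PF. In QS 1 cell held 80.2% of the Hbb-bs UMIs, and in PF Cd74 made up 174 CPM, with 38.1% of its UMIs in 1 cell. Scrublet, a doublet caller, marked 21 members in HS, 8 in QS and 14 in PF.

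Smooth muscle cells were a smaller share of QS than of either other library. They made up 5.28% (4.89 to 5.69) of kept barcodes in HS, 3.85% (3.50 to 4.21) in QS and 5.77% (5.37 to 6.19) in PF. The QS share was 0.667 times the PF share (0.592 to 0.752) and 0.728 times the HS share (0.644 to 0.823). The interval of the HS share over the PF share, 0.916 (0.823 to 1.02), held 1. With barcodes thinned to 2000 UMIs, HS lay further below PF, with 587 of 10959 against 691 of 10953. Among vascular cells alone (smooth muscle, pericyte-rule and endothelial-rule cells), the shares were 14.3% in HS, 11.5% in QS and 15.1% in PF, and the QS share was 0.764 times the PF share (0.677 to 0.861). There were 1.65 smooth muscle cells per pericyte-rule cell in HS, 1.08 in QS and 1.54 in PF. Fibroblast-rule cells, which sit in the same vessel walls and meninges, were 306 in HS, 80 in QS and 317 in PF. How much of this reflects dissection or dissociation was not tested.

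**Figure D1:**
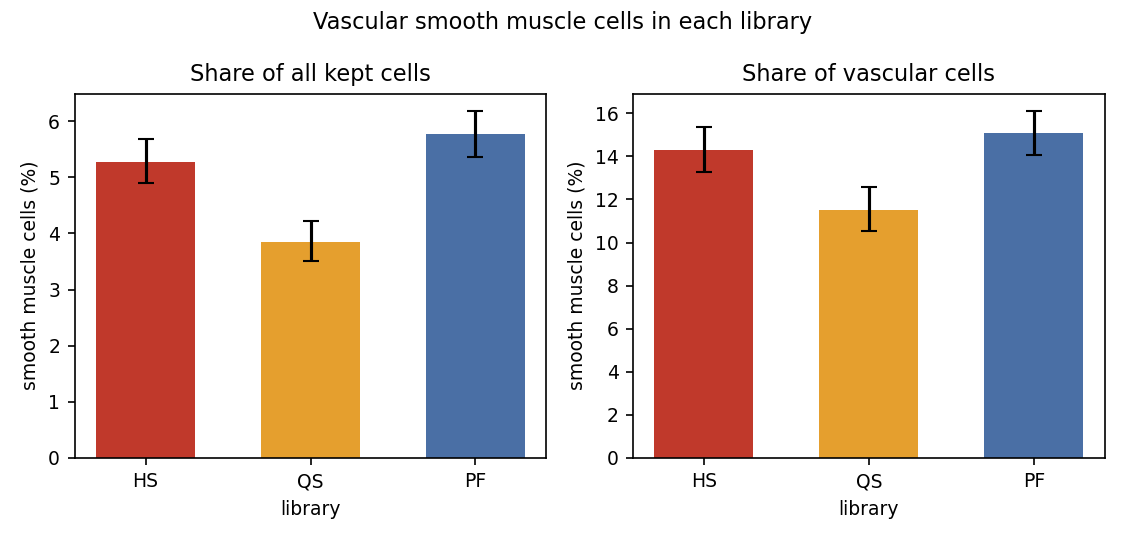
Share of smooth muscle cells (percent, y axis) among all kept barcodes and among vascular cells in the HS, QS and PF libraries. Bars are the shares and error bars the exact 95% intervals of counting error. QS lies lowest in both, at 3.85% of kept barcodes and 11.5% of vascular cells.

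The cells varied along a range with more or fewer smooth muscle genes. Members with all 7 rule genes numbered 117 in HS, 103 in QS and 150 in PF, while those with only 4 numbered 34 in HS, 22 in QS and 46 in PF. Cells with 4 rule genes were shallower, with medians of 4066 UMIs in HS, 3780.5 UMIs in QS and 4244.5 UMIs in PF, against 8816 UMIs, 8418 UMIs and 9023.5 UMIs in cells with 7. Vtn (vitronectin), a pericyte marker, fell along the same order in every library. In HS it was at 4075 CPM in cells with 4 rule genes, 2974 CPM with 5, 1219 CPM with 6 and 399.5 CPM with 7. In QS the corresponding levels were 5903 CPM, 2987 CPM, 1475 CPM and 316 CPM, and in PF they were 5522 CPM, 2249 CPM, 1399.8 CPM and 428 CPM. Myh11 went the other way, with 1028 CPM in HS cells with 4 genes and 3565 CPM in those with 7. This order is partly set by the rule and by depth, and it describes a range of cells, not types.

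**Figure D2:**
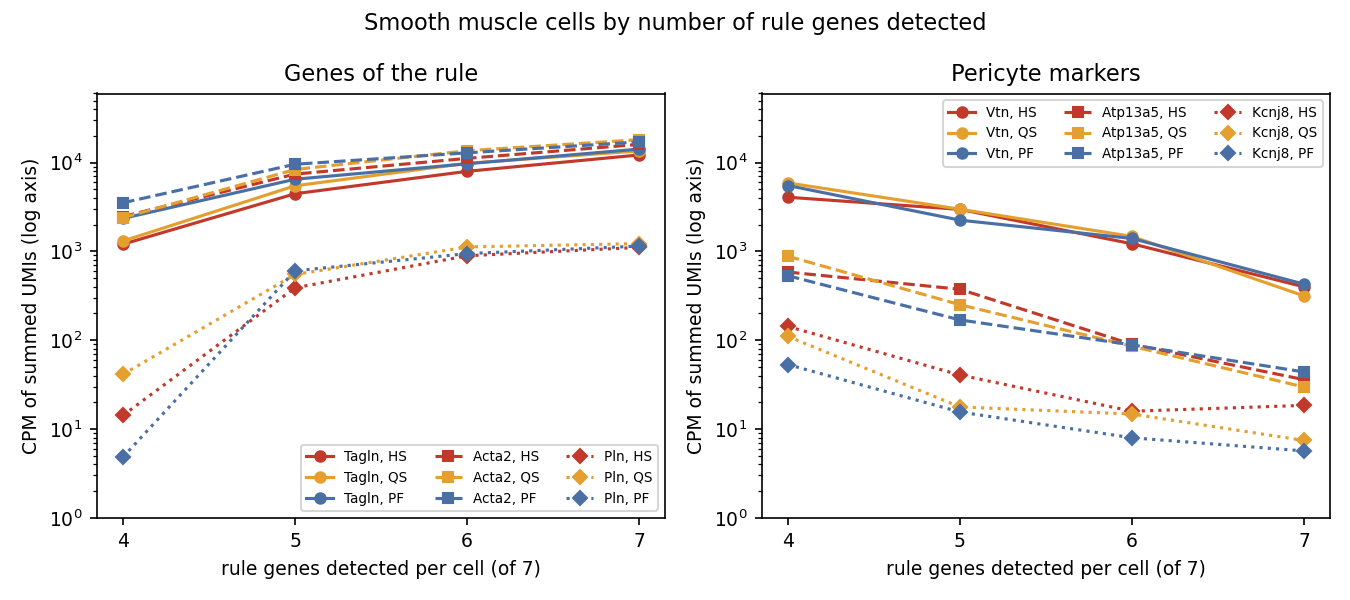
Level (CPM, log axis) of Tagln, Acta2 and Pln and of the pericyte genes Vtn, Atp13a5 and Kcnj8 in smooth muscle cells that had 4, 5, 6 or 7 of the 7 rule genes detected, for HS, QS and PF. In HS Tagln was at 1206 CPM with 4 genes and 12195 CPM with 7, while Vtn was at 4075 CPM and 399.5 CPM.

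Cells just outside it, with at least 4 genes but Myh11 at 1 UMI, numbered 33 in HS, 24 in QS and 39 in PF, and cells just inside, with Myh11 at 2 UMIs, numbered 28 in HS, 17 in QS and 32 in PF. Acta2 was at 1130.0 CPM in HS, 3467 CPM in QS and 1901 CPM in PF just outside, and at 3325 CPM in HS, 3320.4 CPM in QS and 3738 CPM in PF just inside. Per cell, the 7 rule genes made up a median of 2.53% of UMIs in HS, 3.15% in QS and 2.95% in PF.

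Among genes outside the rule with at least 100 CPM in every library, the 10 highest ratios to pericyte-rule cells began with Kcnab1. This gene, a beta subunit of voltage-gated potassium channels, had 975 CPM in HS, 707 CPM in QS and 925 CPM in PF, against 15.8 CPM, 10.5 CPM and 9.32 CPM in pericyte-rule cells. Fbxl22, an F-box protein of muscle, was at 147 CPM in HS, 163 CPM in QS and 159.8 CPM in PF, against 2.75 CPM, 2.80 CPM and 2.91 CPM. Ptgis, prostacyclin synthase, was at 103 CPM in HS, 124 CPM in QS and 105 CPM in PF, with at most 2.80 CPM in pericyte-rule cells. The next in rank were Dpysl3, Crispld2, Smim5, Csrp1, Pdlim3, Tesc and Sncg. The ranking is against pericyte-rule cells only. Crispld2 was also at 1423 CPM in HS, 833 CPM in QS and 1342 CPM in PF in fibroblast-rule cells. There Ptgis was at 58.7 to 84.9 CPM and Dpysl3 at 71.6 to 83.5 CPM. Csrp1 was at 1046 to 1102 CPM in oligodendrocyte-rule cells, and Smim5 at 118 to 142 CPM in ependymal-rule cells. Kcnab1, Fbxl22, Pdlim3, Tesc and Sncg were lower in every other compared class.

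By role, most contractile genes were higher than in pericytes, while other groups held genes on both sides. Of contractile genes outside the rule with at least 20 CPM in either cell class, 18 of 21 were at 2 times the pericyte level or more in all 3 libraries. Over all 7711 such genes outside the rule the share was 6.25%, and a further 9.67% were at 0.5 times the pericyte level or less in all 3 libraries. Among channel and calcium genes 8 of 25 were at 2 times or more and 3 at 0.5 times or less. The matrix had 6 of 26 at 2 times or more and 8 at 0.5 times or less, cyclic nucleotide genes 4 and 5 of 18, vasoactive receptors 3 and 3 of 10, and Notch genes 0 and 2 of 10. Regulators of contraction had 5 of 19 and transcriptional regulators 4 of 19 at 2 times or more, and neither had a gene at 0.5 times or less. Among channels, the ryanodine receptor Ryr2 was at 53.8 to 75.3 CPM, against at most 3.44 CPM in pericyte-rule cells, and the potassium channel Kcna5 at 115 to 157 CPM, against at most 11.1 CPM. Of the receptors, Olfr558, an odorant receptor, was at 210 to 233 CPM, against at most 18.9 CPM, and Npy1r, a neuropeptide Y receptor, at 195 to 237 CPM, against at most 59.1 CPM. The neurotrophin gene Ntf3 was at 64.3 to 67.6 CPM, against at most 1.37 CPM in pericyte-rule cells. Since the rule chose the cells on these counts, all of this is description.

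Serum response factor, with its partner myocardin, switches on contractile genes at a DNA element called the CArG box. The box was searched on both strands in the 250 bases before the RefSeq start of each gene (GRCm38.p6), a window that held it for 482 of 32851 starts in all (1.47%). It was found for 6 of the 25 contractile genes that had an entry (24.0%), namely Actc1, Myl6, Myl9, Vcl, Ldb3 and Filip1l. A match is a description of these letters and not a shown binding site. The windows of Myl9 (chr2:156775214-156775463, plus strand), the regulatory myosin light chain, and of Fbxl22 (chr9:66514594-66514843, minus strand) are shown. Both genes were higher than in pericyte-rule cells and carry the box, in capitals, beginning 161 and 222 bases before the start:
Myl9: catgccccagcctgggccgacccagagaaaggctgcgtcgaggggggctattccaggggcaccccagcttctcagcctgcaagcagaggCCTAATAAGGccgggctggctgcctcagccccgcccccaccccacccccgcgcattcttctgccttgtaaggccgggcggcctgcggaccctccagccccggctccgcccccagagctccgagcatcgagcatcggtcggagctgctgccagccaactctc
Fbxl22: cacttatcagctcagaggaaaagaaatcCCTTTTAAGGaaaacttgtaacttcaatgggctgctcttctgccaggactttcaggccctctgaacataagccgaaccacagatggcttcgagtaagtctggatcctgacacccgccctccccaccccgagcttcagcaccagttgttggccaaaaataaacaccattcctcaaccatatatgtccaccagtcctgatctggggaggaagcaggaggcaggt
Myl9 was at 5078 CPM in HS, 6322 CPM in QS and 5761 CPM in PF, against 1593 CPM, 1909 CPM and 1647 CPM in pericyte-rule cells.

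None of the tested contractile genes reached the threshold between libraries. Of 10577 genes tested in HS against PF, 247 were higher (2.34%) and 204 lower (1.93%), 4.26% in all. Of 10382 tested in QS against PF, 225 were higher (2.17%) and 379 lower (3.65%), 5.82% in all. Of 10238 tested in QS against HS, 242 were higher (2.36%) and 473 lower (4.62%), 6.98% in all. Of the 21 contractile genes tested outside the rule, 0 were called in any of the 3 comparisons. A list of this size can hold 0 calls at these shares, so the count alone does not set contractile genes apart. The same shares are the background for the counts of every list below. The contractile median log2 ratio was -0.03 in HS against PF, 0.01 in QS against PF and 0.03 in QS against HS. Over all genes it was 0.02, 0.00 and -0.02. The rule genes are given as a description, and their ratios ran between 0.820 for Tagln in HS against PF and 1.24 for Tpm2 (beta tropomyosin) in QS against HS. Csrp1, a LIM protein of the actin cytoskeleton, was at 1054 CPM in HS, 1426 CPM in QS and 1175 CPM in PF, and its ratio of 1.35 in QS against HS did not reach 1.5. Mustn1 was at 841 CPM in HS, 1071 CPM in QS and 1027 CPM in PF.

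The enzymes that switch contraction on and off were not called against PF. Of 20 regulators tested, 0 were called in HS against PF or in QS against PF. Mylk, myosin light chain kinase, was at 1463 CPM in HS, 1466 CPM in QS and 1462 CPM in PF. Ppp1r14a, an inhibitor of myosin phosphatase, was at 344 CPM in HS, 486 CPM in QS and 459.8 CPM in PF, a ratio of 0.748 (0.703 to 0.795) in HS against PF. Prkg1, cyclic GMP-dependent protein kinase, was at 3009 CPM in HS, 2209.9 CPM in QS and 2635 CPM in PF. Rgs2, which shortens the signal of G protein-coupled receptors, was the 1 member lower in QS against HS, at 12.1 CPM in QS and 19.4 CPM in HS (ratio 0.624, 0.422 to 0.907), and without doublets it was at 0.832 and not called.

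Of 20 transcriptional regulators of smooth muscle tested, Mrtfa was the 1 called in QS against PF, a count near the share over all genes. Mrtfa (chr15:81012281-81190757, mm10), a partner of serum response factor that responds to actin, was at 169 CPM in HS, 110.2 CPM in QS and 176 CPM in PF. It was lower in QS than in PF (ratio 0.627, 0.555 to 0.707) and than in HS (0.650, 0.574 to 0.735). With each cell weighted equally Mrtfa was no longer called in QS against HS. In pericyte-rule cells it was at 72.8 CPM in HS, 74.1 CPM in QS and 75.7 CPM in PF, and the smooth muscle ratio of QS to PF was 0.641 times (0.483 to 0.851) the pericyte ratio. Myocd (myocardin) was at 249 CPM in HS, 182 CPM in QS and 222 CPM in PF, a ratio of 0.820 in QS against PF that is under the threshold. In HS against PF, 0 of 20 regulators were called, and in QS against PF Mrtfa was the 1 of 20, beside 5.82% called over all genes. Klf4, which represses contractile genes when smooth muscle changes state, was at 849 CPM in HS, 1089 CPM in QS and 789.8 CPM in PF.

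Few channel and calcium handling genes were called, and those called against PF were pericyte genes at low level. Kcnj8 and Abcc9, the pore and the regulatory subunit of the ATP-sensitive potassium channel of pericytes, were both higher in HS than in PF. Kcnj8 was at 22 CPM in HS, 15.1 CPM in QS and 9.89 CPM in PF, with ratios of 2.22 (1.59 to 3.14) in HS and 1.52 (1.02 to 2.28) in QS against PF. Abcc9 was at 19.4 CPM in HS, 8.57 CPM in QS and 9.71 CPM in PF, with a ratio of 2.0 (1.42 to 2.85) in HS against PF. Pericyte-rule cells held 780 CPM, 961 CPM and 794 CPM of Kcnj8 in HS, QS and PF, while the summed pericyte markers of the smooth muscle cells lay between 4321 CPM and 4467 CPM. Among members with 4 of the 7 rule genes Kcnj8 was at 143 CPM in HS, 110.3 CPM in QS and 53.2 CPM in PF, and among those with 7 it was at 18.5 CPM in HS, 7.44 CPM in QS and 5.67 CPM in PF. Under a stricter membership, with 6 of the 7 genes and Myh11 at 5 or more UMIs, the HS to PF ratio was 2.44 for Kcnj8 and 2.63 for Abcc9. Outside the rule, these were the 2 of 27 channel and calcium genes called in HS against PF, and Kcnj8 was the 1 of 27 in QS against PF. The QS call rested on few cells, since 1 QS cell held 13 of 51 UMIs, and with each cell weighted equally the ratio was 1.47 and not called. The part of neighbouring pericytes in these levels was not tested.

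The genes that carry calcium entry and store release in smooth muscle were not called. Cacna1c, the pore of the L-type calcium channel, was at 736 CPM in HS, 623 CPM in QS and 769 CPM in PF. Kcnma1 and Kcnmb1, the pore and the beta subunit of the calcium-activated potassium channel that opposes contraction, stayed at 172 to 190 CPM and at 97.8 to 104 CPM. Ryr2 was at 75.3 CPM in HS, 53.8 CPM in QS and 58.1 CPM in PF, a ratio of 1.30 (1.11 to 1.51) in HS against PF. Trpm4, a cation channel that depolarises smooth muscle, was higher in QS than in HS, at 43.1 CPM in QS and 27.5 CPM in HS (1.57, 1.23 to 1.99), and was at 39.0 CPM in PF. Kcnab1, first in the ranking against pericytes, was at 707 CPM in QS against 925 CPM in PF, a ratio of 0.764 (0.728 to 0.803), and at 975 CPM in HS.

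Receptors for vasoactive signals were mostly low, and 20 of 39 could be tested. In HS against PF, 0 of the 20 were called. For QS against PF Htr1b, a serotonin receptor, and Ptger4, a prostaglandin E2 receptor, were lower, and Ptgir, the prostacyclin receptor, was higher. Htr1b was at 16.0 CPM in HS, 6.79 CPM in QS and 16.9 CPM in PF, a ratio of 0.403 (0.243 to 0.642) in QS against PF. Pericyte-rule cells had 0 UMIs of it in HS and in QS, which allows up to 2.06 CPM and 2.10 CPM, and 0.583 CPM in PF. Ptger4 was at 5.55 CPM in HS, 2.36 CPM in QS and 8.24 CPM in PF (QS against PF 0.287, 0.117 to 0.614). Ptgir was at 10.3 CPM in HS, 14.5 CPM in QS and 8.79 CPM in PF (1.65, 1.08 to 2.5), and was not called under the stricter membership, where the interval held 1. The receptors with more UMIs were not called against PF. Ednra, the endothelin receptor of smooth muscle, was at 211 CPM in HS, 191 CPM in QS and 189 CPM in PF, and Npy1r was at 237 CPM in HS, 206 CPM in QS and 195 CPM in PF. Tbxa2r, the thromboxane receptor, was higher in QS than in HS, at 76.8 CPM in QS and 49.7 CPM in HS (1.54, 1.29 to 1.84), with 70.2 CPM in PF.

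In the relaxing pathway of nitric oxide and cyclic nucleotides 1 low gene was called against PF. Of 17 genes tested, 0 were called in HS against PF, and Pde3b, a phosphodiesterase, was the 1 lower in QS against PF, at 4.73 CPM in QS and 9.53 CPM in PF (0.496, 0.264 to 0.883). It was not called under the stricter membership (0.520), without doublets (0.768) or with cells weighted equally (0.634). The subunits of the nitric oxide receptor, Gucy1a1 and Gucy1b1, were at 394 to 448 CPM and at 422 to 446 CPM in the 3 libraries. Pde3a, a related phosphodiesterase, was at 1250.1 CPM in HS, 982 CPM in QS and 1166 CPM in PF.

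Notch signalling keeps smooth muscle differentiated, and 2 of its target genes were higher in QS than in HS. Notch3, the receptor of mural cells, was at 534 CPM in HS, 535 CPM in QS and 537 CPM in PF. Heyl, a repressor induced by Notch (chr4:123233556-123249875, mm10), was at 94.7 CPM in HS, 167 CPM in QS and 134 CPM in PF. It was higher in QS than in HS (1.76, 1.55 to 1.99), and its ratio in HS against PF was 0.705 (0.627 to 0.792). Nrarp, a Notch target that damps the pathway, was at 122 CPM in HS, 197 CPM in QS and 183 CPM in PF, with ratios of 1.61 (1.44 to 1.80) in QS against HS and 0.670 (0.605 to 0.742) in HS against PF. Heyl and Nrarp were the 2 of 11 Notch genes called in QS against HS, while 0 of 11 were called against PF in HS or in QS. The share of all genes higher in QS against HS was 2.36%. Hes1 was at 749 CPM in HS, 836 CPM in QS and 717 CPM in PF. Pericyte-rule cells had QS to HS ratios of 1.82 for Heyl and 1.68 for Nrarp.

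**Figure D3:**
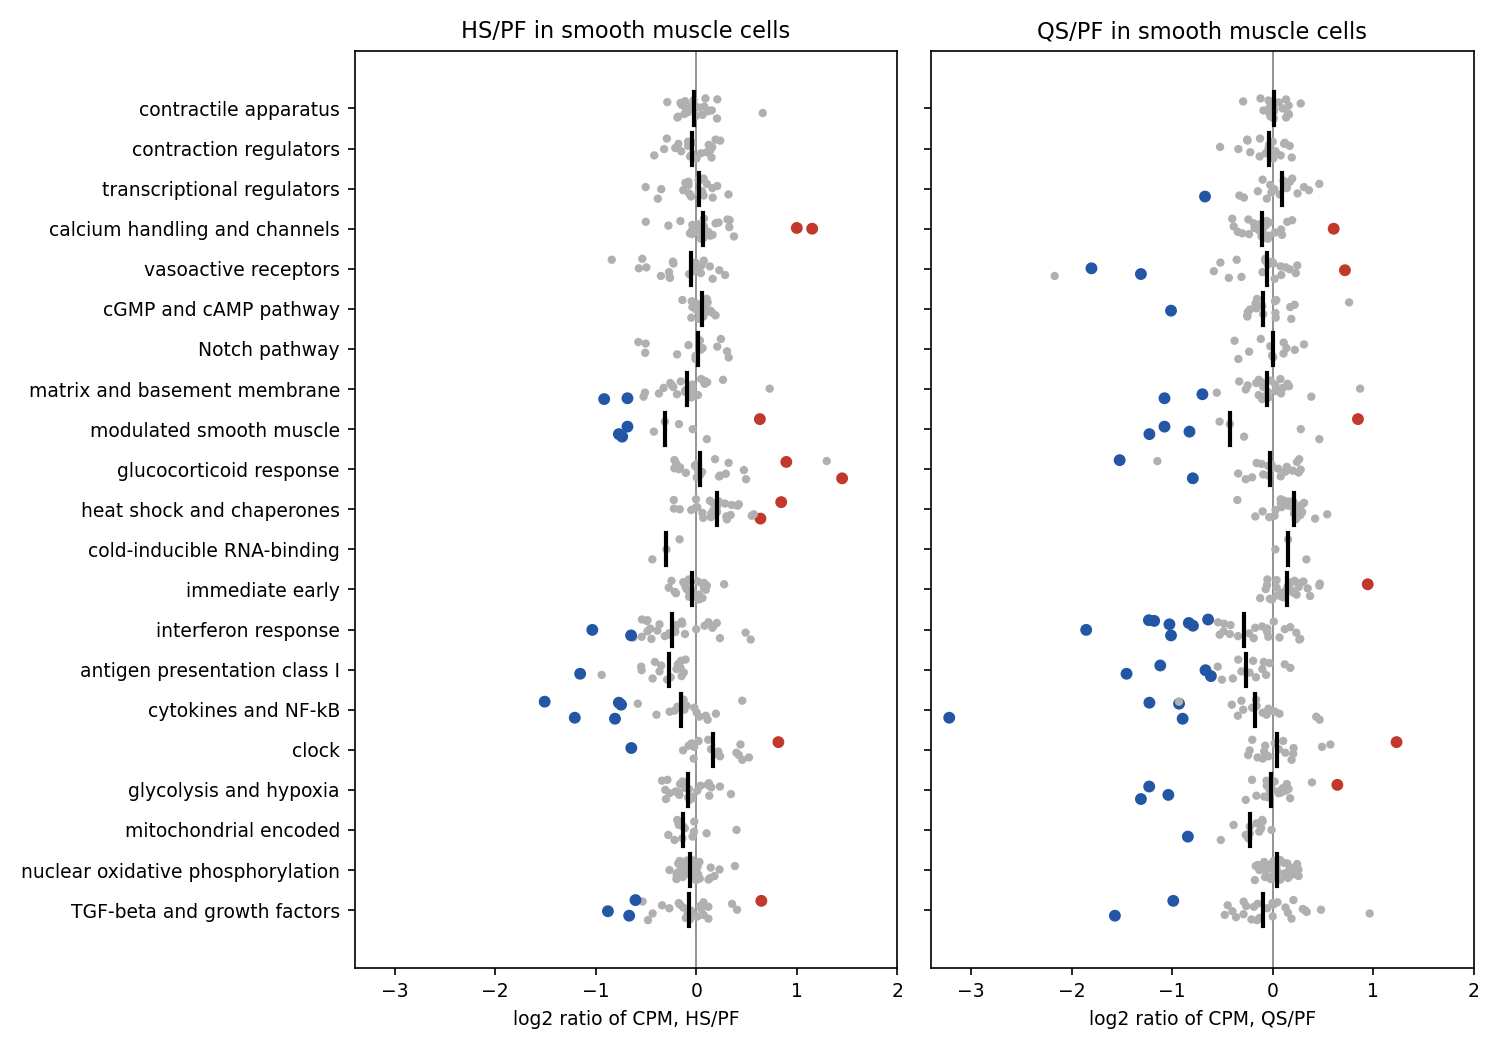
Log2 ratio of CPM for each member of the gene lists in smooth muscle cells, HS against PF and QS against PF, 1 row per list; coloured points are called at 1.5 times, grey points are not, and black bars are list medians. The 7 rule genes are left out. Of the 21 contractile genes tested 0 are called in each comparison, while the interferon list has a median of -0.24 in HS and -0.29 in QS.

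Elastin was lower in HS than in the other libraries. Eln (chr5:134702593-134747323, mm10), the elastic protein that smooth muscle lays down in artery walls, was at 33.5 CPM in HS, 58.8 CPM in QS and 63.2 CPM in PF. It was lower in HS than in PF (0.530, 0.438 to 0.639) and higher in QS than in HS (1.76, 1.42 to 2.17), and the QS to PF ratio was 0.930 (0.777 to 1.11). Endothelial-rule cells had 53.5 CPM in HS, 64.2 CPM in QS and 59.7 CPM in PF, and fibroblast-rule cells 165 CPM, 96.0 CPM and 143 CPM. Fn1 (fibronectin) was lower in HS and in QS than in PF, at 17.4 CPM in HS, 13.3 CPM in QS and 28.0 CPM in PF, but 1 PF cell held 32.7% of its UMIs, and with each cell weighted equally HS was at 0.824 times PF and no longer called. Eln and Fn1 were the 2 of 25 matrix genes called in HS against PF. In QS against PF 2 of 25 were called, Fn1 and Col8a1 (0.616, 0.402 to 0.924), the second not called under the stricter membership (0.718). Col4a1 and Col4a2, the basement membrane collagens, stayed at 276 to 289 CPM and at 194 to 216 CPM.

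Genes of the modulated state, which smooth muscle enters when it leaves its contractile state, gave calls in both directions. Of 9 tested in HS against PF, Sox9 was higher and Lgals3, Vcam1 and Fn1 were lower. Shares over all genes were 2.34% higher and 1.93% lower in HS, and 2.17% higher and 3.65% lower in QS, against PF. Sox9, a cartilage regulator that astrocytes also express, was at 17.0 CPM in HS, 19.8 CPM in QS and 11 CPM in PF, with ratios of 1.55 (1.10 to 2.19) in HS and 1.80 (1.2 to 2.59) in QS. Called doublets held 49 of its 86 UMIs in HS, and without them the HS to PF ratio was 0.706. In QS against PF Sox9 was higher, though not without doublets (1.46) or under the stricter membership (1.22), and Vcam1 (0.427), Fn1 (0.474) and Ly6a (0.563, 0.467 to 0.676) were lower. Vim (vimentin), which is abundant in these cells, was at 1599 CPM in HS, 1989.9 CPM in QS and 1639.8 CPM in PF.

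Among secreted growth factors, the neurotrophin gene Bdnf was highest in HS and lowest in QS. Bdnf (chr2:109674700-109727007, mm10), brain-derived neurotrophic factor, was at 27.5 CPM in HS, 8.86 CPM in QS and 17.6 CPM in PF. It was higher in HS than in PF (1.57, 1.20 to 2.05), lower in QS than in PF (0.504, 0.323 to 0.766) and lower in QS than in HS (0.322, 0.209 to 0.480). With each cell weighted equally the HS to PF ratio was 1.49, under the threshold. Pericyte-rule cells had 0 UMIs of Bdnf in every library, which allows up to 2.06 CPM in HS. Thbs1 (thrombospondin 1, an activator of TGF-beta) was at 58.0 CPM in HS, 102 CPM in QS and 88.3 CPM in PF, lower in HS than in PF (0.657, 0.567 to 0.762) and higher in QS than in HS (1.76, 1.5 to 2.06). Id2, an inhibitor of helix-loop-helix factors, was lower in HS, at 36.3 CPM in HS and 66.7 CPM in PF (0.544, 0.453 to 0.651), with 50.5 CPM in QS. Acvrl1, a receptor of the bone morphogenetic protein family, was lower than in PF in both, at 7.73 CPM in HS, 4.14 CPM in QS and 12.3 CPM in PF. In all, 1 of 27 genes of this group was higher and 3 lower in HS against PF, and 0 were higher and 2 lower in QS against PF. The all-gene shares were 2.34% and 1.93% in HS, and 2.17% and 3.65% in QS. Ntf3 was at 67.6 CPM in HS, 66.5 CPM in QS and 64.3 CPM in PF.

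**Figure D4:**
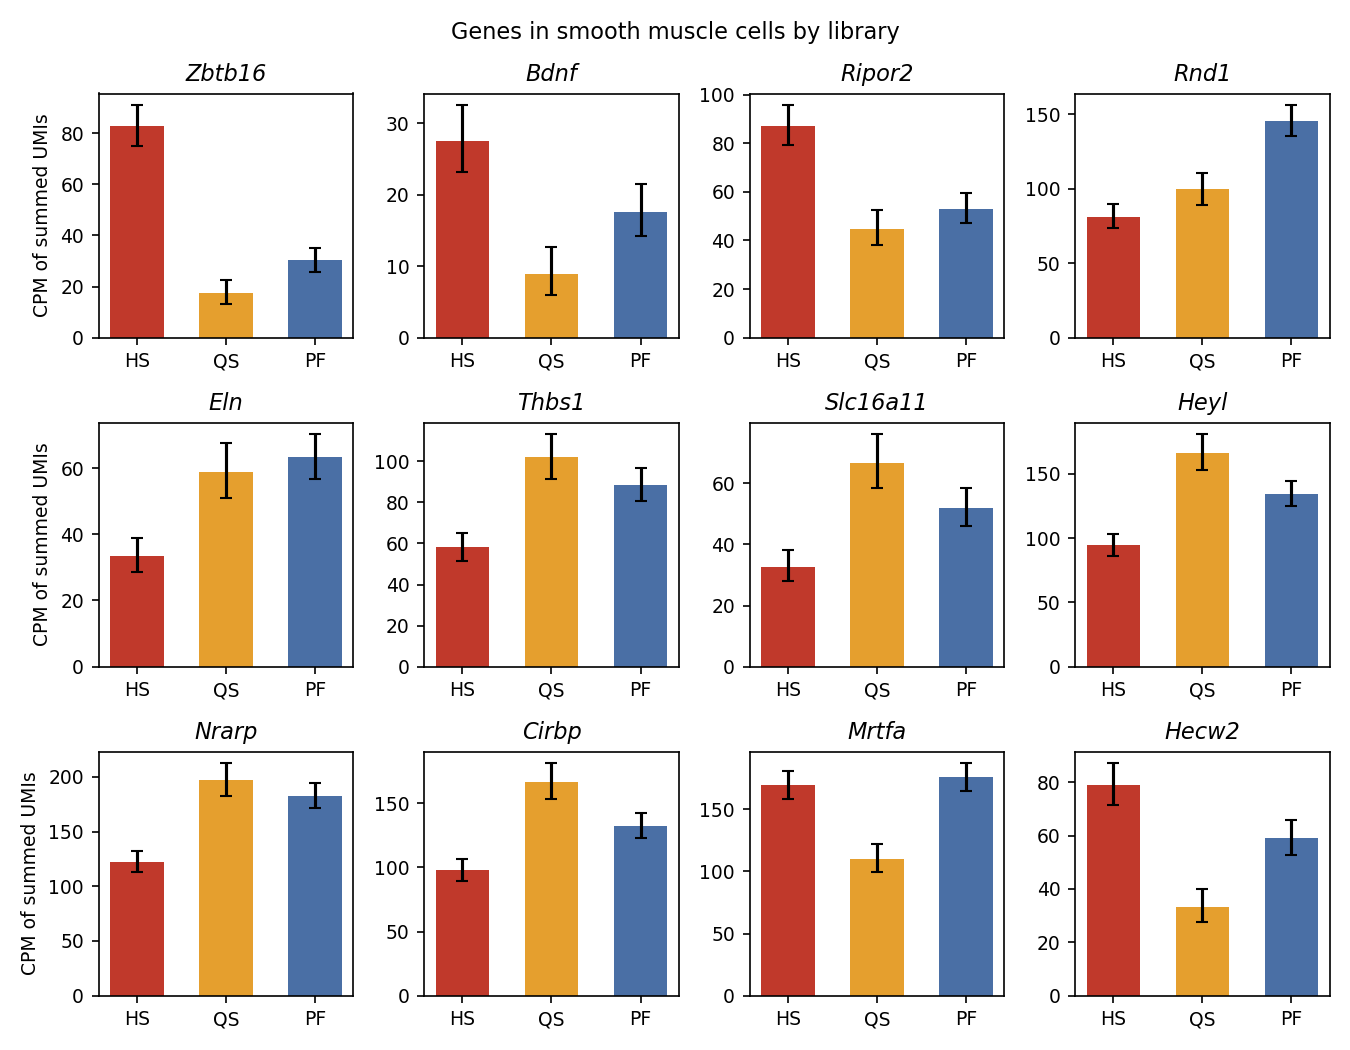
Level (CPM) of Zbtb16, Bdnf, Ripor2, Rnd1, Eln, Thbs1, Slc16a11, Heyl, Nrarp, Cirbp, Mrtfa and Hecw2 in the smooth muscle cells of HS, QS and PF; bars start at 0 and the error bars are exact 95% Poisson intervals of counting error. Zbtb16 is highest in HS at 82.6 CPM, while Eln is lowest in HS at 33.5 CPM and Mrtfa lowest in QS at 110.2 CPM.

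Zbtb16 had the highest HS to PF ratio among the genes eligible for naming. Zbtb16 (chr9:48654297-48836222, mm10), a zinc finger factor induced by glucocorticoids, was at 82.6 CPM in HS, 17.4 CPM in QS and 30.2 CPM in PF. It was higher in HS than in PF (2.73, 2.28 to 3.29), lower in QS than in PF (0.577, 0.421 to 0.781) and lower in QS than in HS (0.211, 0.158 to 0.278). No smooth muscle cell held more than 10.2% of its UMIs in any library. Pericyte-rule cells were at 92.8 CPM in HS, 2.10 CPM in QS and 6.99 CPM in PF. Their PF level rested on 12 UMIs in 9 cells. Of their 135 UMIs in HS, 1 cell held 30 and called doublets held 32. The HS to PF ratio of smooth muscle was 0.206 times (0.111 to 0.382) the pericyte ratio. Against endothelial-rule cells, at 198 CPM in HS, 8.14 CPM in QS and 37.2 CPM in PF, it was 0.513 times (0.424 to 0.622). Most other glucocorticoid-responsive genes were not called. Tsc22d3 was at 86.4 CPM in HS, 74.7 CPM in QS and 86.1 CPM in PF, and Sgk1 at 57.9 CPM in HS, 52.3 CPM in QS and 49.5 CPM in PF. Angptl4 was the other of 22 called in HS against PF, at 8.52 CPM in HS, 2.07 CPM in QS and 4.58 CPM in PF (1.86, 1.11 to 3.18). In QS against PF 2 of 21 were lower, Zbtb16 and Lcn2 (lipocalin 2), the second at 5.61 CPM in QS and 16.1 CPM in PF (0.348, 0.200 to 0.576).

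Most heat shock genes had ratios above 1 in both exposed libraries, and few passed the threshold. Of 29 measured, 23 had an HS to PF ratio above 1 and 25 a QS to PF ratio above 1, and the median log2 ratios were 0.20 in HS and 0.21 in QS, beside 0.02 and 0.00 over all genes. Called were 2 of 29 in HS against PF, Hspa1b and Ahsa2, and 0 of 29 in QS against PF. Hspa1b (chr17:34956436-34959238, mm10), an inducible chaperone of the HSP70 family, was at 1318 CPM in HS, 1135 CPM in QS and 847 CPM in PF, with ratios of 1.56 (1.5 to 1.62) in HS and 1.34 (1.28 to 1.40) in QS. Its near-identical neighbour Hspa1a was at 2759 CPM in HS, 2619 CPM in QS and 2234 CPM in PF, and was not called against PF. The division of counts within the pair is uncertain, and the pair was not summed. Ahsa2, a co-chaperone of HSP90, was at 34.9 CPM in HS, 22.4 CPM in QS and 19.4 CPM in PF (1.80, 1.40 to 2.31 in HS). Hsp90ab1, a constitutive HSP90, came close, at 1711 CPM in HS, 1677 CPM in QS and 1151 CPM in PF, with ratios of 1.49 (1.44 to 1.53) in HS and 1.46 (1.40 to 1.51) in QS.

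Hspa1b was set beside the same gene in neighbouring cell classes. The HS to PF ratio was 0.955 (0.923 to 0.987) in pericyte-rule cells, which held 4367 CPM in HS, 4378 CPM in QS and 4574 CPM in PF, and it was 1.14 in endothelial-rule cells. The smooth muscle ratio was 1.63 times (1.55 to 1.71) the pericyte ratio, an interval of counting error only. This contrast is of Hspa1b alone, and how far it depends on the division of counts with Hspa1a was not tested. Smooth muscle held less Hspa1b than pericyte-rule cells in all 3 libraries. Hsp90ab1 did not separate the classes in this way, with an HS to PF ratio of 1.42 in pericyte-rule cells. Heat shock factor binds arrays of GAA and TTC blocks, so the letters GAANNTTC, which read the same on both strands, were searched in the 250 bases before each start. They were found for 2199 of 32851 starts (6.69%) and for 10 of the 24 heat shock genes that had an entry (41.7%). The first share is per start and the second counts genes with a match at any start. Both describe letters and not binding. The Hspa1b window (chr17:34959239-34959488, minus strand, RefSeq, GRCm38.p6) is shown because it is the called HSP70 gene; the match, in capitals, begins 104 bases before the start:
Hspa1b: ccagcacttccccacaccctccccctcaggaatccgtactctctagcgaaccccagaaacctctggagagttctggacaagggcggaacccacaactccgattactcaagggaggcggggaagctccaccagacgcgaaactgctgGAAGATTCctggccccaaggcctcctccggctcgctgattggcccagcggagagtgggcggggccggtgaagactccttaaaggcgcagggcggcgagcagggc

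**Figure D5:**
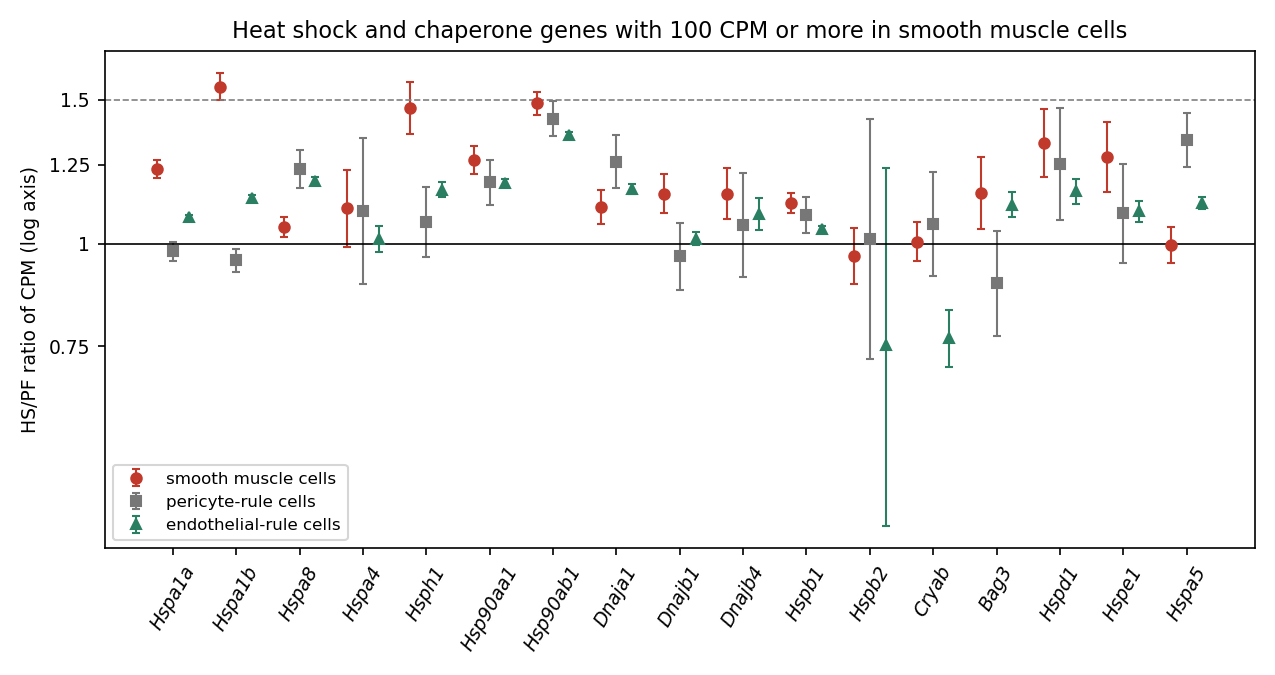
HS to PF ratio of CPM (log axis) of heat shock genes with at least 100 CPM in smooth muscle, pericyte-rule and endothelial-rule cells, with exact 95% intervals of counting error. Hspa1b is at 1.56 in smooth muscle, 0.955 in pericyte-rule and 1.14 in endothelial-rule cells.

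The RNA-binding genes induced by cooling were lowest in HS. Cirbp (chr10:80165985-80172786, mm10), the cold-inducible RNA-binding protein, was at 97.7 CPM in HS, 167 CPM in QS and 132 CPM in PF. It was higher in QS than in HS (1.71, 1.51 to 1.93), with ratios of 0.738 (0.657 to 0.829) in HS and 1.26 (1.13 to 1.41) in QS against PF. Rbm3 was at 328 CPM in HS, 410.3 CPM in QS and 403 CPM in PF, and Srsf5 at 335 CPM in HS, 418 CPM in QS and 376 CPM in PF. The 3 genes had a median log2 ratio of -0.30 in HS and 0.15 in QS against PF, and 0 of 3 were called in either. In pericyte-rule cells Cirbp had an HS to PF ratio of 0.594.

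Immediate early genes, which dissociation of tissue can itself induce, were mostly not called. Fos was at 11191 CPM in HS, 10954 CPM in QS and 11002 CPM in PF. In HS against PF 0 of 30 were called, and in QS against PF the 1 called was Arc, a synaptic and early response gene, at 24.0 CPM in HS, 38.1 CPM in QS and 19.8 CPM in PF (1.93, 1.48 to 2.51). In QS 24 of 30 had a ratio to PF above 1, with a median log2 ratio of 0.14.

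Interferon-responsive and antigen presentation genes, where called, were lower than in PF in HS and in QS. Of 27 interferon genes tested, 0 were higher and 2 lower in HS, and 0 were higher and 8 lower in QS. The lower share over all genes was 1.93% in HS and 3.65% in QS. The list medians were -0.24 in HS and -0.29 in QS on the log2 scale. Irf7, a transcription factor of the response, was at 13.7 CPM in HS, 10.6 CPM in QS and 21.4 CPM in PF, with ratios of 0.638 (0.467 to 0.866) in HS and 0.496 (0.332 to 0.726) in QS. Ifi27l2a, a small interferon-induced protein, was at 15.7 CPM in HS, 8.86 CPM in QS and 32.1 CPM in PF, with ratios of 0.488 (0.369 to 0.640) in HS and 0.276 (0.181 to 0.409) in QS. In QS against PF the lower genes included Lgals3bp (0.426), Rtp4 (0.442) and Gbp3 (0.491). The Lgals3bp call was lost with free RNA subtracted, and the Gbp3 call under the stricter membership. Endothelial markers outside the rule moved the same way in QS against PF, with Ly6c1 (0.606), Pecam1 (0.542) and Cdh5 (0.499) called lower. Cldn5, Flt1, Slco1a4 and Adgrl4, which the membership rule caps, were also under 1, and of them Slco1a4 (0.661) was called. Since the rule used these genes, their ratios are a description. Lgals3bp was at 4.14 CPM in the QS smooth muscle cells and at 62.8 CPM in endothelial-rule cells of QS. The part of endothelial RNA in these levels was not tested. Ifitm3, which had more UMIs, was at 448 CPM in HS, 447 CPM in QS and 627 CPM in PF, ratios of 0.714 and 0.713. Of the class I genes, which display peptides to T cells, 18 of 18 had an HS to PF ratio under 1 and 16 of 18 a QS to PF ratio under 1. Of 17 tested, the 1 called in HS was H2-Q7 (0.449, 0.260 to 0.751), and 4 were lower in QS, H2-Q4, H2-Q7, Tap1 and Psmb9. B2m, the shared light chain, was at 151 CPM in HS, 130.3 CPM in QS and 185 CPM in PF. These comparisons share the PF library, so a difference particular to it enters both.

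The class II genes, which macrophages and dendritic cells carry, were the lowest in rank against PF and rested on few cells. Cd74 was at 33.9 CPM in HS, 7.97 CPM in QS and 174 CPM in PF, with ratios of 0.194 in HS and 0.0458 in QS. In PF 1 cell held 362 of its 951 UMIs, and without the top cell of each library it was at 21.6 CPM in HS, 7.38 CPM in QS and 108 CPM in PF. H2-Aa was at 13.5 CPM in HS, 2.66 CPM in QS and 60.1 CPM in PF, and H2-Eb1 at 14.1 CPM in HS, 4.43 CPM in QS and 58.3 CPM in PF. PF lay above both other libraries for all 3 genes. Pericyte-rule cells also had more Cd74 in PF, with 19.9 CPM in HS, 28.7 CPM in QS and 146 CPM in PF. Ptprc, a marker of blood-derived cells, was at 8.12 CPM in HS, 6.5 CPM in QS and 18.9 CPM in PF in the smooth muscle cells, and its part in these differences was not tested.

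Cytokine and NF-kB genes, where called in HS or QS against PF, were lower than in PF. In HS 5 of 20 tested were lower, Ccl2, Ccl7, Tnfaip3, Vcam1 and Ptgs1, and in QS 4 of 19, Ccl2, Ccl7, Icam1 and Vcam1. Over all genes 1.93% were lower in HS and 3.65% in QS. Of the 45 Ccl7 UMIs in PF, 1 cell held 15. Ccl2, a chemokine for monocytes, was at 7.53 CPM in HS, 7.09 CPM in QS and 13.2 CPM in PF, with ratios of 0.571 (0.375 to 0.857) and 0.537 (0.324 to 0.863). In fibroblast-rule cells Ccl2 was at 271 CPM in HS, 286 CPM in QS and 327 CPM in PF. Nfkbia, an inhibitor of NF-kB, was at 560.3 CPM in HS, 648 CPM in QS and 652 CPM in PF. Il6 was at 5.55 CPM in HS, 7.09 CPM in QS and 5.13 CPM in PF.

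Clock genes gave 1 higher and 1 lower of 18 in HS against PF, beside 2.34% and 1.93% over all genes. Dbp, a clock output factor, was at 25.2 CPM in HS, 45.5 CPM in QS and 39.4 CPM in PF, lower in HS than in PF (0.639, 0.509 to 0.799) and higher in QS than in HS (1.81, 1.42 to 2.30). Bhlhe41, a clock repressor, was at 11.3 CPM in HS, 15.1 CPM in QS and 6.41 CPM in PF, higher in HS (1.76, 1.14 to 2.76) and in QS (2.35, 1.5 to 3.72). Per2 was at 57.3 CPM in HS, 36.0 CPM in QS and 42.7 CPM in PF, and was lower in QS than in HS (0.629, 0.505 to 0.780). The labels do not state the time of day of collection, which cannot be told apart from the groups.

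Few energy genes were called. Of 25 glycolytic and hypoxia genes tested, 0 were called in HS, while in QS Hk2 (0.403), Pfkfb3 (0.487) and Slc16a3 (0.427) were lower than in PF and Pdk2 (1.56) was higher. Among all genes 3.65% were lower and 2.17% higher in QS against PF. Hk2, hexokinase 2, was at 8.92 CPM in HS, 4.43 CPM in QS and 11 CPM in PF. All 13 mitochondrial transcripts had a QS to PF ratio under 1, with a median log2 ratio of -0.23, and 1 was called, mt-Nd3, at 555 CPM in HS, 317 CPM in QS and 569 CPM in PF (0.557, 0.519 to 0.597). Of nuclear oxidative phosphorylation genes, 0 of 41 were called in HS and 0 of 40 in QS. The median share of mitochondrial UMIs per cell, which also moves with damage during dissociation, was 3.96% in HS, 3.79% in QS and 4.53% in PF.

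Beyond the lists, the genes named by rank in HS against PF were few, since 4 higher and 9 lower genes were eligible. Besides Zbtb16 and Hspa1b, the higher ones were Ripor2 and Lin52. Ripor2, an inhibitor of RhoA, was at 87.2 CPM in HS, 44.9 CPM in QS and 52.9 CPM in PF (1.65 in HS against PF), and its ratio was 1.46 in pericyte-rule cells. Lin52 was at 54.3 CPM in HS, 34.3 CPM in QS and 36.1 CPM in PF. Among the lower ones, Rnd1 (chr15:98663421-98677461, mm10), a small GTPase that opposes actin fibres, was at 81.2 CPM in HS, 99.5 CPM in QS and 146 CPM in PF (0.558 in HS against PF). Slc16a11, a transporter of the monocarboxylate family, was at 32.7 CPM in HS, 66.8 CPM in QS and 52.0 CPM in PF, lower in HS than in PF (0.628) and the highest of the QS to HS ratios named (2.04). Pericyte-rule cells had at most 4.89 CPM of Slc16a11.

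For QS against PF 1 higher and 14 lower genes were eligible. Arl6ip5, a membrane protein of the endoplasmic reticulum, was the higher one, at 87.8 CPM in HS, 106 CPM in QS and 68.2 CPM in PF (1.56). Next to the class II genes and Mrtfa, the lower ones named were Pi15 and Hecw2. Pi15 was at 33.5 CPM in HS, 25.4 CPM in QS and 52.0 CPM in PF (0.488). Hecw2, a ubiquitin ligase, was at 79.0 CPM in HS, 33.4 CPM in QS and 59 CPM in PF (0.566), and lower in QS than in HS (0.422). In pericyte-rule cells its QS to PF ratio was 0.990 and in endothelial-rule cells 0.388.

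In QS against HS 15 higher and 55 lower genes were eligible. The 6 highest were Slc16a11, Heyl, Eln, Thbs1, Gadd45a and Cirbp, and the 6 lowest Zbtb16, Hecw2, Galnt17, Magi3, Ripor2 and Gpc6. Gadd45a, a growth arrest gene, was at 30.3 CPM in HS, 52.6 CPM in QS and 36.5 CPM in PF (1.73 in QS against HS). Galnt17, a glycosyltransferase, was at 268 CPM in HS, 134 CPM in QS and 192 CPM in PF (0.501). Magi3, a scaffold protein, was at 150.4 CPM in HS, 75.6 CPM in QS and 111 CPM in PF (0.503), and Gpc6, a glypican of the cell surface, at 223 CPM in HS, 123 CPM in QS and 193 CPM in PF (0.553). Malat1, a nuclear RNA whose level also moves with the share of nuclear RNA captured, was at 40657 CPM in HS, 32737 CPM in QS and 35048 CPM in PF. Its part in the lower genes of QS was not tested.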

How the data were processed

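Per the labels, hypothalamus was dissociated and libraries were made with 10x 3′ chemistry. The authors deposited whole-number UMI counts of 32285 genes per barcode for 3 libraries. Per the file headers Cell Ranger was at version 7.0.1. The submitters' processing notes list Cell Ranger 5.0.0, Seurat 3.1.2 and mm10. No source used here states whether intronic reads were counted, which would change levels of genes with long introns.

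Barcodes with at least 500 UMIs and at most 20% mitochondrial UMIs were kept. Counts were summed over the chosen cells of each library and expressed as CPM. Ratios have exact conditional binomial 95% intervals, ratios set against those of another cell class have normal-approximation intervals on the log scale, levels exact Poisson intervals and shares exact Clopper-Pearson intervals. A count of 0 allows up to 3 counts. UMIs are not independent of the cell they came from, so these cover counting error only. Doublets were handled by the excluded genes alone, and Scrublet calls were an alternative.

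The members, gene lists and named genes were chosen with earlier results of these data known. Named were the rule genes, the 6 highest and 6 lowest called ratios per comparison, members of the smooth muscle lists, up to 4 members of each other list, and the 10 genes with the highest ratio to pericyte-rule cells. Genes ranked between libraries reached 50 CPM in the higher library, and in smooth muscle at least 20% of the highest level in any compared class. Genes ranked against pericyte-rule cells had at least 100 CPM in the smooth muscle cells of every library. Further members with more UMIs, such as Ifitm3, and called members of short counts were chosen after their values were seen. Hspa1a and Hspa1b are near-identical, as are Ifit3 and Ifit3b, so their counts may be split between copies. Scripts were tested on simulated data. Tools were Python 3.11.15, NumPy 2.4.6, SciPy 1.17.1, pandas 2.3.3, Scanpy 1.11.5 and matplotlib 3.10.9.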

Additional observations from a re-analysis of the deposited data

Results flagged for a closer look

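Ifi27l2a had an HS to PF ratio of 0.488 in smooth muscle cells and of 2.74 in pericyte-rule cells, at 79.7 CPM in HS and 29.1 CPM in PF there. In HS 1 pericyte-rule cell held 88 of 116 UMIs, and without the top cell of each library the pericyte levels were 19.2 CPM in HS and 26.2 CPM in PF. Lgals3 had an HS to PF ratio of 0.60 in smooth muscle cells and of 14.2 in pericyte-rule cells, where 1 HS cell held 33 of 36 UMIs. Against endothelial-rule cells the ratio of 0.60 for Lgals3 stood beside 2.24, at 5.95 CPM in HS and 2.66 CPM in PF, and 1 HS endothelial-rule cell held 34 of 176 UMIs. The ratios as summed point opposite ways in the compared classes, but for Ifi27l2a not without the top cells. For Lgals3 the pericyte levels without the top cells were 2.06 CPM in HS and 1.17 CPM in PF. These are no higher than a count of 0 allows, so they cannot be compared. With 1 library in each group the difference was not tested.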

How the results depend on the processing

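With 1 library in each group no replicate could be left out, and every value is limited by that and by counting depth. No paired analysis was possible because each group holds 1 library. Under the stricter membership the smooth muscle share was 4.14% in HS, 3.04% in QS and 4.44% in PF. With vascular cells as the denominator it was 14.3% in HS, 11.5% in QS and 15.1% in PF, and the QS to PF ratio of shares was 0.764. After thinning to 2000 UMIs the members were 587 of 10959 in HS, 402 of 10183 in QS and 691 of 10953 in PF, where the share was 6.31%. The HS share then lay further below the PF share than without thinning. Counts of called genes moved with the UMI minimum. At 10 UMIs 394 genes were higher and 320 lower in HS against PF, and 352 were higher in QS against PF. At 100 UMIs 53 were higher and 56 lower in HS against PF, 42 higher and 129 lower in QS against PF, and 55 higher and 207 lower in QS against HS. Without Scrublet doublets 163 were higher in HS against PF, and the Sox9 ratio turned to 0.706. The median log2 ratio of modulated smooth muscle genes in QS against HS, -0.22, was 0.29 without doublets and 0.35 with free RNA subtracted. The mitochondrial median in QS against HS, -0.10, was -0.056 with cells weighted equally. The cause of these moves was not tested. Of 32 named calls in HS against PF, 7 were lost with cells weighted equally (Lin52, Thbs1, Fn1, Bdnf, Lgals3, Acvrl1 and Angptl4), 3 under the stricter membership (Dbp, Irf7 and Angptl4) and 3 with free RNA subtracted (Vcam1, Ccl7 and Acvrl1). Of 44 in QS against PF, 8 were lost with cells weighted equally (Gpc6, Cxcl10, Kcnj8, Pde3b, Pdk2, Tap1, H2-Q4 and H2-Q7), 7 under the stricter membership (Gbp3, Ptgir, Pde3b, Ccl2, Sox9, Slc16a3 and Col8a1) and 3 without doublets (Pde3b, Sox9 and Tap1). Of 42 in QS against HS, 6 were lost without doublets (Rgs2, Cxcl10, Pde3b, Igtp, Psmb9 and Iigp1), 6 with cells weighted equally (Lin52, Mrtfa, Npas2, Cxcl10, Pde3b and Iigp1) and 4 under the stricter membership (Per2, Ahsa2, Ifi27l2a and Psmb9). The sign of the list median turned under some alternatives for the transcriptional, Notch and TGF-beta lists in HS against PF. In QS against PF it turned for the contractile (rule genes included), Notch, glucocorticoid, clock and glycolysis lists. In QS against HS it turned for the vasoactive, Notch, modulated, class I, cytokine and TGF-beta lists.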
